A study of Mus musculus with 42 samples.

Results

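Trichostatin A (TSA) and knockdown of Sirt1 were compared in late 2-cell mouse embryos, 2 ways of blocking removal of acetyl groups from proteins. The comparison covered 8929 genes with 1 FPKM or more (fragments per length of exon and per total of reads, a level per gene length) in either library, of 15737 genes in the table used here. TSA, at 10 nM, was given from the early 2-cell stage onward, and its solvent control was DMSO. For the knockdown, zygotes had been injected with siRNA against Sirt1, mRNA of the ubiquitin ligase Trim21 and an antibody to SIRT1, and the injection control was scrambled siRNA with Trim21 mRNA. All embryos were from ICR mice and the late 2-cell ones were collected 48 h after hCG, with 3 embryos pooled in a library. The table holds 1 late 2-cell control column, made of 2 libraries called control A and control B here, and does not say whether it stands for the solvent or the injection control.

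The headers of the deposited table conflict with the study's own gene tables about which columns hold these embryos. By the tables, the column headed 4-cell-FK866 is TSA and the one headed 4-cell-FK866-NMN is Sirt1 knockdown, and those columns are used below. Against late 2-cell control, all 1203 genes of the TSA table that are in the rows had the listed direction in the first of these columns, against 546 in the column headed late-2-cell-TSA. For the Sirt1 table, 773 of 821 genes had the listed direction in the second column, against 442 in the one headed late-2-cell-Sirt1. Other columns had part of these directions too. The next best for the TSA table was the early 2-cell column with 1096 genes, and for the Sirt1 table the columns of late 2-cell FK866, early 2-cell and TSA had 703, 684 and 641 genes. The copy of the TSA table used here was shortened, so its count covers part of that table. Although the labels list 2 samples of each group, each of these columns shows the reads of 1 library only, 4682639 reads for TSA and 6907426 for Sirt1 knockdown. With 1 library a group no test was possible, no p-value is given, and every difference below has no replicate check.

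Histone deacetylases remove acetyl groups from lysines and so favor closed chromatin. Class I and class II enzymes carry a zinc ion in the active site, which TSA occupies. SIRT1 belongs to the sirtuins, which use NAD+ as cosubstrate and are not blocked by TSA. In the mouse, a minor wave of transcription starts in the zygote, and the major wave of zygotic genome activation follows during the 2-cell stage. Late 2-cell embryos then transcribe genes of ribosome assembly, and stored maternal transcripts are cleared.

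Sirt1 itself was measured first. The gene lies on chromosome 10 from 63319005 to 63381704 on the minus strand (GRCm38). Its level was 86.6 FPKM in control A and 66.2 FPKM in control B, and 11.3 FPKM in the Sirt1 knockdown library, a 6.78-fold lower level than the control mean. The knockdown also acts on the protein, which was not measured in these data. In the TSA library it was 7.61 FPKM, 10.0-fold lower than the control mean. Both libraries were thus below both control libraries, TSA was the lower of the pair (190 reads against 415, ratio 0.675, exact 95% counting interval 0.566 to 0.804), and the level of Sirt1 does not tell the 2 columns apart. Early 2-cell embryos, collected 34 h after hCG, had 13.5 and 6.18 FPKM. Trim21, whose mRNA was injected for the knockdown, was listed at 0 in TSA, Sirt1 knockdown and both control libraries. Duxf3, an activator of the minor wave that lies in an array of near-identical copies, had 9 reads (0.713 FPKM) in the TSA library and 0 reads in the Sirt1 knockdown library. It had 0.589 FPKM per late 2-cell control library, near the TSA level, and 2.26 FPKM per early 2-cell library.

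Before the genes are described, the libraries were compared with each other, because the spread between libraries of 1 group was wide. TSA and Sirt1 knockdown lay more than 2-fold apart on the log2(FPKM + 1) scale in 59.8% of 8547 genes whose reads could be recovered. The TSA library lay as far from control A (64.9%) and control B (60.4%). The Sirt1 knockdown library lay 49.5% from control A and 47.8% from control B, while the 2 control libraries themselves lay 46.7% apart. Sirt1 knockdown was therefore about as far from each control library as the control libraries were from each other, and TSA was farther from all of them. Among other pairs of 1 group, the share was 27.1% for early 2-cell, 45.7% for late 2-cell FK866, 46.2% for 4-cell control, 44.5% for 4-cell FK866 and 32.4% for 4-cell FK866+NMN, but it was 70.8% for late 2-cell FK866+NMN (4-cell groups by the tables). A pair of libraries of 1 group can thus differ by more than TSA and Sirt1 knockdown did.

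**Figure D1:**
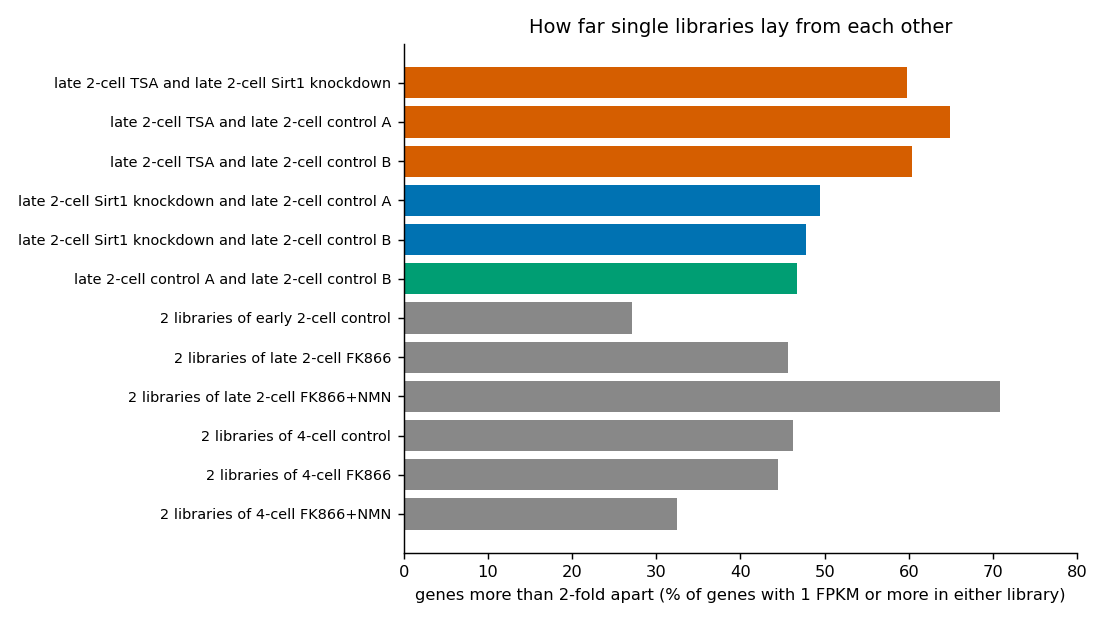
Share of genes more than 2-fold apart between 2 single libraries, in % of genes with 1 FPKM or more in either, for late 2-cell TSA (orange), Sirt1 knockdown (blue), the 2 late 2-cell controls (green) and pairs within other groups (grey). The 3 pairs with TSA lay at 59.8% to 64.9%, the Sirt1 knockdown and control pairs at 46.7% to 49.5%, and 1 pair within a group at 70.8%.

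Over all 8929 genes, 3100 (34.7%) were more than 2-fold higher in TSA and 2230 (25.0%) more than 2-fold higher in Sirt1 knockdown, and 3599 lay within 2-fold. The median log2 difference, TSA over Sirt1 knockdown, was 0.29, and the medians of gene groups below are to be read against it. Zeros made up much of these counts. Of the genes higher in TSA, 1570 were listed at 0 in Sirt1 knockdown, and of those higher in Sirt1 knockdown, 871 were listed at 0 in TSA. Among the 5423 genes with 1 FPKM or more in both libraries the counts were nearly even, 1082 higher in TSA and 1020 higher in Sirt1 knockdown, and the median was 0.07. Counted by the exact 95% interval of the read ratio, 2747 genes lay entirely beyond 2-fold toward TSA and 1874 toward Sirt1 knockdown. That count covers the 8547 genes with recovered reads and is not a part of the counts above. Such intervals cover counting error only, and reads of libraries made from 3 embryos are not independent molecules.

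The late 2-cell control, which the comparison did not use, lay nearer to Sirt1 knockdown than to TSA for 2117 of the 3100 genes higher in TSA (68.3%) and for 1476 of the 2230 genes higher in Sirt1 knockdown (66.2%). With control A alone the shares were 74.1% and 60.1%, and with control B alone 67.7% and 62%. Counted over 9788 genes with reads in all 4 late 2-cell libraries recovered and 1 FPKM in any, TSA stood more than 2-fold above all other 3 libraries in 1678 genes (17.1%) and below all of them in 938 (9.58%). Sirt1 knockdown stood alone above in 520 genes (5.31%) and alone below in 442 (4.52%). For control A the counts were 584 (5.97%) and 532 (5.44%), and for control B 767 (7.84%) and 264 (2.70%). Sirt1 knockdown thus stood alone no more often than either control library did in the upward direction, and downward its count lay between those of the control libraries. What sets TSA and Sirt1 knockdown apart was, in these counts, mostly a distance of the TSA library from the other 3.

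**Figure D2:**
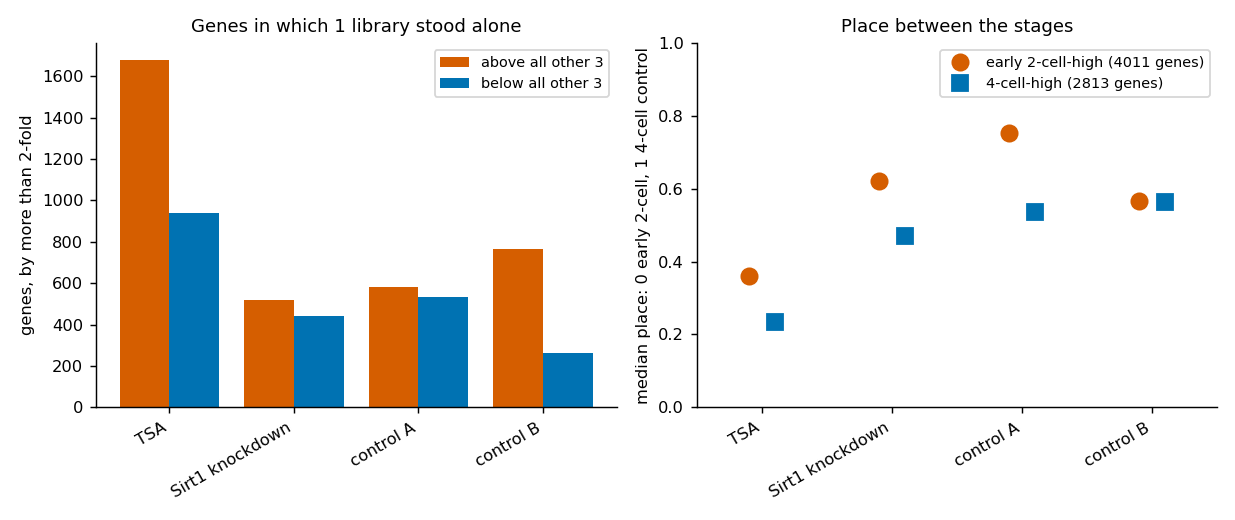
Left, number of genes in which 1 of the 4 late 2-cell libraries lay more than 2-fold above (orange) or below (blue) all other 3. Right, median place of each library between early 2-cell (0) and the 4-cell control (1) on the log2(FPKM + 1) scale, for genes higher in early 2-cell (orange) and in 4-cell embryos (blue). TSA has 1678 and 938 genes of its own and the places 0.359 and 0.233, the lowest of the 4.

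Genes of the early 2-cell stage were higher in TSA, and genes of the late 2-cell stage were higher in Sirt1 knockdown. Of 2087 measured genes that exceeded the late 2-cell control by more than 2-fold at the early 2-cell stage, 904 (43.3%) were higher in TSA and 327 (15.7%) in Sirt1 knockdown, with a median log2 difference of 0.77. Of 2476 measured genes that were more than 2-fold higher in late 2-cell control, 498 (20.1%) were higher in TSA and 928 (37.5%) in Sirt1 knockdown, with a median of -0.46. The 4366 genes of neither set had a median of 0.47. The compared columns took no part in choosing these sets, although the late 2-cell control did.

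A second pair of sets, chosen after the first was seen, avoided the late 2-cell control and took genes more than 2-fold apart between early 2-cell and the 4-cell control (by the tables the column headed late-2-cell-TSA). The 3195 measured early genes had a median of 0.60 and the 2405 measured 4-cell genes a median of -0.60. Each late 2-cell library was then placed between these stages, gene by gene, with 0 for the early 2-cell level and 1 for the 4-cell level. Over 4011 early 2-cell-high genes, which go down with time, the median place was 0.359 for TSA, 0.621 for Sirt1 knockdown, 0.752 for control A and 0.566 for control B. Over 2813 4-cell-high genes, which go up with time, it was 0.233 for TSA, 0.470 for Sirt1 knockdown, 0.537 for control A and 0.564 for control B. TSA was thus the least advanced of the 4 libraries in both sets. Sirt1 knockdown lay between the control libraries for the first set and below both for the second.

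**Figure D3:**
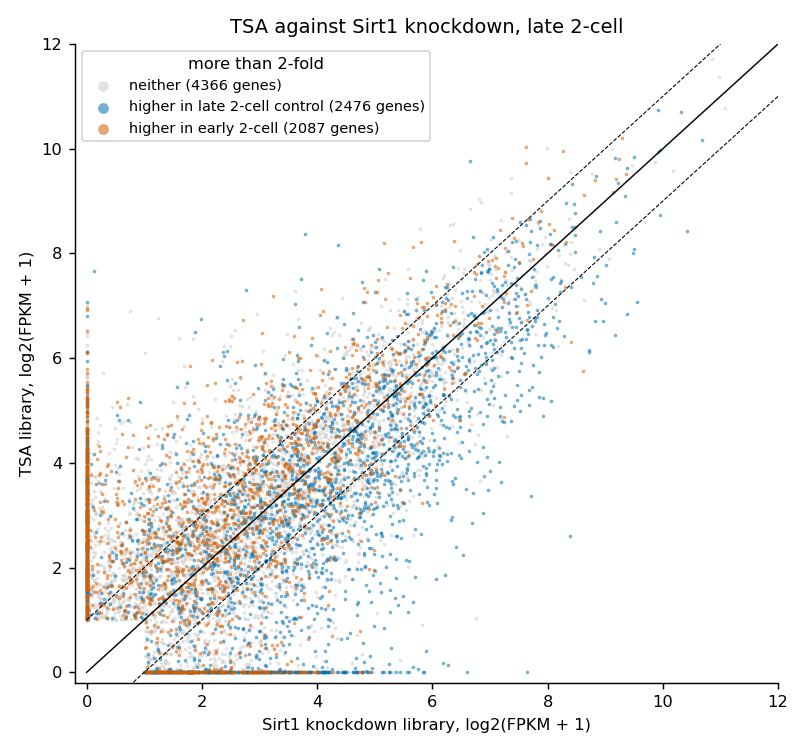
Each point is 1 of 8929 genes, with log2(FPKM + 1) in the Sirt1 knockdown library on the x axis and in the TSA library on the y axis, the line of equality and dashed lines at 2-fold. Genes higher in early 2-cell (orange, 2087) lie more often above the line and genes higher in late 2-cell control (blue, 2476) more often below it, and points on the axes are genes listed at 0 in 1 library.

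The TSA library did not match early 2-cell embryos either. Against the 2 early 2-cell libraries, TSA lay more than 2-fold apart in 65.2% and 66.2% of genes, Sirt1 knockdown in 66.7% and 68.2%, control A in 69.7% and 71.5% and control B in 65.8% and 68.1%. TSA had the lowest share in each case, but it remained farther from either early 2-cell library than from the late 2-cell libraries.

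The largest differences were on and off patterns. By the rule for named genes (an official symbol and 20 FPKM or more in the higher library), the 12 largest in each direction were taken. Of the 12 higher in TSA, 11 were listed at 0 in Sirt1 knockdown. Klk1b28-ps, a kallikrein pseudogene, had 120.1 FPKM in TSA and 0 in Sirt1 knockdown and both controls. Dnajb3, a testis-enriched co-chaperone on chromosome 1, had 88.2 FPKM (434 reads) in TSA and 0 reads in the other 3 libraries, at least 213-fold higher than Sirt1 knockdown when 3 reads are taken as the limit of a 0. Vax2, a homeobox factor of the eye field, had 67.2 FPKM (391 reads) and again 0 in the other 3. These levels were also low in early 2-cell embryos, with 0 and 0.205 FPKM for Dnajb3 and 1.57 and 2.43 FPKM for Vax2, so that they do not follow the stage pattern above. Platr27, Prtn3 (a neutrophil protease) and Mup3 (a major urinary protein) had 75.4, 69.5 and 68.0 FPKM in TSA, and no late 2-cell control library exceeded 0.139 FPKM for any of them.

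The remaining genes of the 12 were present in at least 1 control library. Gja4 was low in Sirt1 knockdown more than high in TSA, with log2 differences from the control mean of -4.91 and 0.63. This gene, which encodes the gap junction protein connexin 37 of the oocyte, had 45.5 FPKM in TSA, 19.2 and 38.8 FPKM in the controls, and 0 reads in Sirt1 knockdown. In early 2-cell embryos it had 153 and 186 FPKM. Mlf1 had 107.7 FPKM in TSA and 1.35 in Sirt1 knockdown, with 6.87 and 18.6 FPKM in the controls, so that the controls lay between them. Pard6a, a cell polarity protein, had 49.3 FPKM in TSA, 0 in Sirt1 knockdown and control A, and 12.4 FPKM in control B. Pramel39, Prxl2b and Spa17 complete the list, at 48.3 to 54.3 FPKM in TSA, 0 in Sirt1 knockdown and 1.24 to 2.08 FPKM per control library.

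The 12 genes highest in Sirt1 knockdown over TSA were mostly genes that the control libraries expressed as well. Obox8, a homeobox gene of the oocyte and 2-cell embryo on chromosome 7 from 14331436 to 14333557, had 199 FPKM (1604 reads) in Sirt1 knockdown, 216 and 275 FPKM in the controls, and 0 reads in TSA, at least 362-fold lower by the same limit. Pramel7, a leucine-rich repeat protein of the early embryo, had 76.4 FPKM in Sirt1 knockdown, 86.5 and 89.9 FPKM in the controls and 0.10 FPKM (1 read) in TSA. Mrpl20, a subunit of the mitochondrial ribosome, had 71.3 FPKM in Sirt1 knockdown, 65.5 and 56.0 FPKM in the controls and 0.128 FPKM (1 read) in TSA. In these genes Sirt1 knockdown stood within or close to the control range and TSA stood at the bottom. Early 2-cell embryos were also low, with 0.912 and 0 FPKM for Obox8 and 2.16 and 0.303 FPKM for Pramel7.

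Obox6 had 333.9 FPKM in Sirt1 knockdown, 185 and 145 FPKM in the controls and 5.08 FPKM in TSA. Stmn3, a regulator of microtubules, AA543401 and Rbp7, a retinol-binding protein, were listed at 0 in TSA and had 46.2 to 56.7 FPKM in Sirt1 knockdown. Slc7a6os, Ssr2, Gins3 (a part of the replicative helicase) and Spic (an ETS factor) had 47.5 to 58.1 FPKM in Sirt1 knockdown and 0 to 0.334 FPKM in TSA. The last of the 12, the 5S rRNA copy n-R5s204, rests on 33 reads in Sirt1 knockdown, with 12.9 FPKM in control A and 0 in control B. Ssr2 and other genes that every cell uses are among those at 0, so a 0 in 1 library is given as a listed value. Without regard to symbol, the largest difference among genes with 100 FPKM or more was that of Gm45251, with 200.9 FPKM in TSA and 0.0988 in Sirt1 knockdown, and with 0.419 FPKM in control A and 20.8 in control B. Ubtfl1, a gene of the early embryo, was among the 6 largest in the other direction, with 7.28 FPKM in TSA, 116.5 in Sirt1 knockdown, and 79.6 and 82.2 in the controls.

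**Figure D4:**
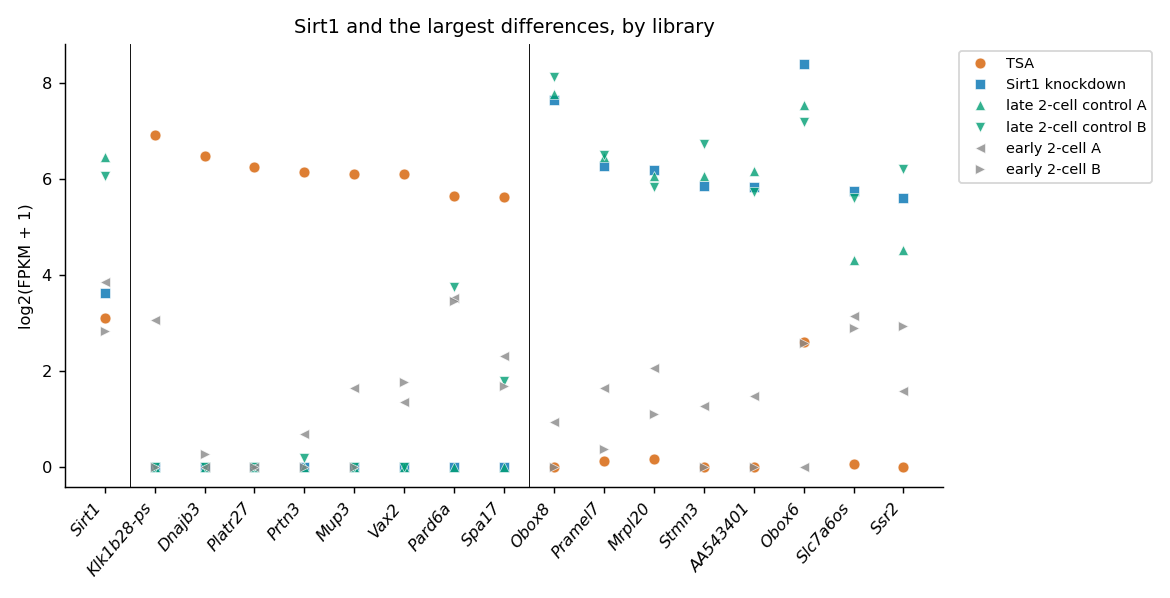
Level of Sirt1, of 8 genes highest in TSA and of 8 genes highest in Sirt1 knockdown by log2(FPKM + 1) in TSA (circles), Sirt1 knockdown (squares), late 2-cell control A and B (green) and early 2-cell libraries (grey). Sirt1 is low in both compared libraries, TSA stands alone at the top in the middle group, and in the right group Sirt1 knockdown lies near the controls with TSA near 0.

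Promoters are shown for the gene with the largest difference in each direction that RefSeq (GRCm38.p6) gives one for, as the 250 bases before the start in the direction of transcription. Capitals mark matches to CCAAT and GGGCGG on either strand, and TATAAA was searched too. Dnajb3, chr1:88205749-88205998, minus strand, has 2 CCAAT matches, 1 GGGCGG match on the opposite strand and 55.2% GC. Pramel7, chr2:87492419-87492668, minus strand, has no match to the 3 motifs, 43.2% GC and a CpG ratio (observed over expected) of 0.0882; this start lies inside the longer GENCODE model.
Dnajb3: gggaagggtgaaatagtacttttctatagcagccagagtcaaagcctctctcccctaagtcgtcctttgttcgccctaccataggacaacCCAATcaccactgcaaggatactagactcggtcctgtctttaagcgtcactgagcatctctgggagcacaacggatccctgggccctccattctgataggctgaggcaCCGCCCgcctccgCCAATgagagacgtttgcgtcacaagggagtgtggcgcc
Pramel7: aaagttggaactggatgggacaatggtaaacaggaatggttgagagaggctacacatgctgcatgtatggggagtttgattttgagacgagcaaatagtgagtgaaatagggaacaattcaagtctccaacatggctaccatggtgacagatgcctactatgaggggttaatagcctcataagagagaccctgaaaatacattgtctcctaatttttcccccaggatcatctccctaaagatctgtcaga

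Over windows from 250 bases before to 50 after the start, TATAAA was found in 9.33% of the promoters of genes higher in TSA, 7.72% of those higher in Sirt1 knockdown and 8.00% of all measured genes, against 14.1% of all 27025 promoters in the RefSeq table. CCAAT was found in 41.9%, 37.8% and 40.2%, and in 37.8% of all promoters. GGGCGG was found in 59.2%, 55.7% and 60.3%, and in 35.6% of all promoters. The median CpG ratio was 0.674 for genes higher in TSA, 0.759 for genes higher in Sirt1 knockdown and 0.741 for all measured genes. Between 65.7% and 70.8% of the genes of each class had a promoter in the table, so these shares describe part of each class. Of measured lincRNA genes, 216 of 418 (51.7%) were higher in TSA and 112 (26.8%) higher in Sirt1 knockdown, with a median of 1.10, whereas protein-coding genes had 33.4% and 24.2% and a median of 0.26.

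Genes of ribosome assembly were lower in TSA. Of 55 measured ribosome biogenesis genes, none was more than 2-fold higher in TSA and 32 (58.2%) were higher in Sirt1 knockdown, with a median of -1.34. Nob1, an endonuclease that finishes the small subunit RNA, had 2.63 FPKM in TSA, 73.7 in Sirt1 knockdown, and 69.9 and 68.1 in the controls. Utp4, a subunit of the small subunit processome, had 1.73 FPKM in TSA, 44.2 in Sirt1 knockdown, and 58.7 and 37.8 in the controls. Polr1b, a core subunit of RNA polymerase I, had 0 reads in TSA, 13.8 FPKM in Sirt1 knockdown, and 12.8 and 8.19 FPKM in the controls. In 28 of the 55 genes TSA stood alone below the other 3 libraries, and Sirt1 knockdown stood alone below in 0 and alone above in 2.

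Cytosolic ribosomal proteins followed the same pattern. Of 52 measured, 1 was higher in TSA and 21 (40.4%) higher in Sirt1 knockdown, with a median of -0.78. Of 54 compared in all 4 libraries, TSA stood alone below in 16 and Sirt1 knockdown in 1. Rps27 had 11.5 FPKM in TSA, 145.9 in Sirt1 knockdown, and 119 and 133 FPKM in the controls. In early 2-cell embryos Rps27 had 3.06 and 0.413 FPKM, below the TSA level. Ribosomal protein genes have many processed copies in the genome, so their reads are uncertain. The mitochondrial ribosome had a median of 0.90, above that of all genes. Of its 39 measured genes, 18 (46.2%) were higher in TSA, against 34.7% of all genes. The 10 (25.6%) higher in Sirt1 knockdown were near the 25.0% of all genes. Of 45 compared in all 4 libraries, Sirt1 knockdown stood alone below in 7 and TSA in 4, against 4.52% and 9.58% of all genes. Mrps28 had 29.5 FPKM in TSA, 21.3 and 16.3 in the controls and 0 reads in Sirt1 knockdown.

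Cell division genes were also lower in TSA. Of 39 measured cyclins, kinases and mitotic genes, 3 (7.69%) were higher in TSA and 15 (38.5%) higher in Sirt1 knockdown, with a median of -0.36. Over all genes these shares were 34.7% and 25.0%. Of 38 compared in all 4 libraries, TSA stood alone below in 12 and Sirt1 knockdown in 1, against 9.58% and 4.52% of all genes. Plk1, a kinase of mitotic entry, had 8.45 FPKM in TSA, 55.3 in Sirt1 knockdown, and 57.5 and 57.7 in the controls. Mcm3, a subunit of the replicative helicase, had 0.854 FPKM in TSA, 30.6 in Sirt1 knockdown, and 51.4 and 20.4 in the controls. Plk1 was high in early 2-cell embryos (102 and 138 FPKM), so that its low level in TSA is not an early 2-cell level. Of 53 spliceosome genes 7 (13.2%) were higher in TSA and 19 (35.8%) higher in Sirt1 knockdown (median -0.13), against the same shares of all genes. TSA stood alone below in 13 of the 55 compared in all 4 libraries. For Snrpa1, part of the U2 particle, TSA had 2.49 FPKM, Sirt1 knockdown 40.6, and the controls 40.4 and 40.6.

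Families of the 2-cell wave did not move as 1 block. All 9 Zscan4 genes, zinc finger genes of the 2-cell embryo, were lower in TSA than in Sirt1 knockdown, 6 of them by more than 2-fold, with a median of -1.74, and in those 6 TSA stood alone below. Summed over the family, the level was 118.3 FPKM in TSA, 328.3 in Sirt1 knockdown and 548.8 per control library, and 2 members stood alone above in control A. The sum was 211.0 FPKM per early 2-cell library, so that the TSA sum was also below the early 2-cell level. Zscan4f had 16.9 FPKM in TSA, 75.6 in Sirt1 knockdown, and 137 and 79.3 in the controls. Zscan4-ps2 had 8.72 FPKM in TSA, 47.0 in Sirt1 knockdown, and 81.9 and 44.8 in the controls. For both genes Sirt1 knockdown was near control B and below control A. Members of these families are close copies that share reads, so the single values are uncertain.

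The next list held Usp17l genes, Zfp352 and related 2-cell genes. Of 8 measured, 4 (50.0%) were higher in TSA and 1 (12.5%) was higher in Sirt1 knockdown (median 0.85), against 34.7% and 25.0% of all genes. Gm4340 had 844 FPKM in TSA, 196.1 in Sirt1 knockdown, and 154 and 94.9 in the controls. Zscan5b was the 1 higher in Sirt1 knockdown, at 9.38 FPKM in TSA, 209.7 in Sirt1 knockdown, and 346.3 and 222 in the controls. It had 5.37 and 1.63 FPKM in early 2-cell embryos, so that it was a gene of the late 2-cell embryo. The Obox family was split, with 14 of 29 higher in TSA and 11 higher in Sirt1 knockdown. Its median of 0.85 turned to below that of all genes, by 1.12, when 5 FPKM was required, and the abundant members Obox8 and Obox6 were both higher in Sirt1 knockdown.

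Of 46 Pramel and Pramef genes, 15 (32.6%) were higher in TSA and 12 (26.1%) higher in Sirt1 knockdown, with a median of -0.17. Both shares were near the 34.7% and 25.0% of all genes. Pramel39, Pramel36 and Pramel46 had 54.3, 39.4 and 36.4 FPKM in TSA and 0 in Sirt1 knockdown, with 1.04 to 2.08 FPKM per control library, against the reverse for Pramel7 above. Of 10 Tdpoz genes 2 were higher in TSA and 1 higher in Sirt1 knockdown (median -0.68). That 1 gene, Tdpoz2, had 0.560 FPKM in TSA, 20.4 in Sirt1 knockdown, and 4.82 and 0 in the controls.

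Few maternal genes were higher in Sirt1 knockdown. Of 48 measured oocyte and maternal genes 2 (4.17%) were higher in Sirt1 knockdown, against 25.0% of all genes, and 18 (37.5%) were higher in TSA, near the 34.7% of all genes. Their median was 0.54, which is 0.24 above that of all genes. Their summed level was 16860 FPKM in TSA, 10560 in Sirt1 knockdown, 13600 per control library and 19940 per early 2-cell library. TSA stood alone above in 4 and Sirt1 knockdown alone below in 4 of the 43 that could be compared in all 4 libraries. Over all genes TSA stood alone above in 17.1% and Sirt1 knockdown alone below in 4.52%. Sohlh1, a transcription factor of the growing oocyte, had 29.2 FPKM in TSA, 0 in Sirt1 knockdown and control A, and 9.31 in control B. Cpeb1, which controls polyadenylation of stored mRNA, had 10.9 FPKM in TSA, 1.11 in Sirt1 knockdown, and 7.28 and 3.55 in the controls. The median log2 difference from the control mean was 0.46 for TSA and -0.21 for Sirt1 knockdown. No such median over all genes is given here, so the opposite signs are not read as a result about maternal genes.

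Relative to all genes, the median was -0.58 for class I and II deacetylases with their corepressors and -0.80 for sirtuins. The sirtuin median was the value of Sirt1 itself, the gene knocked down, at -0.51 before the median of all genes is taken off. Of 17 measured deacetylase and corepressor genes, 3 (17.6%) were higher in TSA, against 34.7% of all genes. Another 5 (29.4%) were higher in Sirt1 knockdown, near the 25.0% of all genes (median -0.29). Hdac1, a class I deacetylase, had 7.07 FPKM in TSA, 23.4 in Sirt1 knockdown, and 31.8 and 17.5 in the controls. Hdac2 had 23, 17.9, 17.7 and 14.1 FPKM in the same order. Ing2 and Sap30, subunits of the Sin3 deacetylase complex, were opposite to each other. Ing2 had 84.4 FPKM in TSA, 4.65 in Sirt1 knockdown, and 3.0 and 16.0 in the controls, whereas Sap30 had 78.3 FPKM in TSA, 338.3 in Sirt1 knockdown, and 209 and 154 in the controls. The demethylase Kdm1a, a partner of deacetylases, had 0.825 FPKM in TSA, 13.7 in Sirt1 knockdown, and 17.7 and 14.2 in the controls.

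The sirtuins summed to 19.1 FPKM in TSA, 51.8 in Sirt1 knockdown and 104.9 per control library. Of these sums, 7.61, 11.3 and 76.4 FPKM were Sirt1 itself, so most of the control sum was the gene knocked down. The sums thus do not show a fall of the other sirtuins in Sirt1 knockdown. Of 5 sirtuins measured 1 passed 2-fold. Sirt4, a mitochondrial sirtuin, had 0.267 FPKM (3 reads) in TSA, 26.3 in Sirt1 knockdown, and 22.5 and 13.8 in the controls. Of 10 measured genes of NAD synthesis and use 1 was higher in TSA and 3 higher in Sirt1 knockdown (median -0.53), none of them above 10.1 FPKM in the compared libraries. Of 18 acetyltransferase and reader genes 3 (16.7%) were higher in TSA and 4 (22.2%) higher in Sirt1 knockdown (median 0.08). Over all genes these shares were 34.7% and 25.0%. The shares higher in Sirt1 knockdown, 30.0% for NAD genes and 22.2% for acetyltransferase and reader genes, were thus near that of all genes. Yeats4, a reader of acetylated histones, had 182 FPKM in TSA, 35.2 in Sirt1 knockdown, and 51.5 and 35.5 in the controls. Of 8 measured histone genes 1 (12.5%) was higher in TSA and 2 (25.0%, the share of all genes) higher in Sirt1 knockdown (median -0.61). The more abundant of these 2, H2az1, had 422 FPKM in TSA, 994 in Sirt1 knockdown and 846 per control library. Many replication-dependent histone mRNAs lack a poly(A) tail, and whether the libraries were poly(A)-selected is not stated in the sources used here.

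Of 30 genes of DNA methylation, Polycomb and heterochromatin 6 (20.0%) were higher in TSA and 9 (30.0%) higher in Sirt1 knockdown, the latter near the 25.0% of all genes (median -0.12). TSA stood alone below in 7 of them. Kdm5b, an H3K4 demethylase, had 2.27 FPKM in TSA, 33.0 in Sirt1 knockdown, and 30.5 and 30.6 in the controls. Cbx3, a heterochromatin protein, had 1.92 FPKM in TSA, 28.8 in Sirt1 knockdown, and 29.7 and 23.5 in the controls. Both were below 1 FPKM in the 2 early 2-cell libraries. Kdm5b and Cbx3 were therefore genes of the late 2-cell embryo at which Sirt1 knockdown stood with the controls and TSA near the early level.

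Genes that deacetylase inhibitors raise in cultured cells were higher in TSA for 7 of 15 measured (46.7%, against 34.7% of all genes) and higher in Sirt1 knockdown for 2 (median 0.47). The cell cycle inhibitor Cdkn1c had 91.5 FPKM in TSA, 4.97 in Sirt1 knockdown, and 16.9 and 3.89 in the controls. Cdkn2b, another such inhibitor, had 22.7 FPKM in TSA, 0 in Sirt1 knockdown and control B, and 15.0 in control A. TSA stood alone above in 2 of the 15 and Sirt1 knockdown alone below in 3, and the medians over the control mean were 0.26 and -0.90.

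Targets of p53 and FOXO, factors that SIRT1 deacetylates, went both ways. Of 28 measured, 11 (39.3%) were higher in TSA and 9 (32.1%) higher in Sirt1 knockdown (median 0.69). These shares were not far from the 34.7% and 25.0% of all genes. Of 27 compared in all 4 libraries, Sirt1 knockdown stood alone above in 1 and alone below in 0, against 10 and 6 for TSA. Btg2, an antiproliferative p53 target, had 56.5 FPKM in TSA, 2.22 in Sirt1 knockdown, and 11.0 and 4.90 in the controls. Bax, a cell death gene, had 8.13 FPKM in TSA, 0 in Sirt1 knockdown, and 2.63 and 0.152 in the controls.

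Of the remaining lists, pluripotency and lineage factors were even (11 higher in TSA and 11 higher in Sirt1 knockdown of 28). Tfap2c, a factor of the outer lineage, had 8.18 FPKM in TSA, 60.4 in Sirt1 knockdown, and 62.5 and 27.2 in the controls. Oxidative phosphorylation (12 and 12 of 47), heat shock and chaperone genes (11 and 11 of 49), the proteasome (6 and 8 of 26) and translation initiation (6 and 10 of 33) had medians between -0.30 and 0.04. In these 4 lists the shares higher in Sirt1 knockdown, 22.4% to 30.8%, were near the 25.0% of all genes. Innate immune genes were higher in TSA for 8 of 16 (50.0%, against 34.7% of all genes) and higher in Sirt1 knockdown for 3 (18.8%), with a median of 1.14. Usp18, an interferon-induced gene, had 211 reads (16.2 FPKM) in TSA and 0 in Sirt1 knockdown and control B, with 0.0549 FPKM in control A, and of the 29 genes listed for this group, 20 were at 0 in Sirt1 knockdown and 11 at 0 in TSA.

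Markers of the embryo and of other cells were checked. Of 12 measured blastomere markers 2 were higher in TSA and 5 higher in Sirt1 knockdown. Dppa3, a maternal factor, had 762 FPKM in TSA, 1154 in Sirt1 knockdown and 2058 per control library, and Nanog was listed at 0 in both compared libraries, with at most 0.107 FPKM in control. Of 18 markers of cumulus, granulosa, blood and other body cells 6 were measured, of which 5 were higher in TSA and 1, Star, in Sirt1 knockdown. No sperm marker was among the 18, so sperm were not checked. Their summed level was 228.7 FPKM in TSA, 19.4 in Sirt1 knockdown and 30.5 per control library. Most of it came from the alpha globins Hba-a1 (130.2 FPKM in TSA, 11.2 in Sirt1 knockdown, 20.0 per control library) and Hba-a2 (81.0, 2.60 and 5.04 FPKM), near-identical genes, while the beta globins Hbb-bs and Hbb-bt had 0.834 and 0 FPKM in TSA. Ptprc, the defining marker of white blood cells, and the cumulus markers Ptx3, Ptgs2 and Tnfaip6 were at 0 in both compared libraries. Cyp19a1, a granulosa enzyme, had 8.12 FPKM in TSA and 2.91 in Sirt1 knockdown. The part of these cells in the results was not tested.

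The number of genes detected was higher in TSA. At a depth of 4164896 reads, that of the smallest late 2-cell library, the expected number of genes with 5 reads or more was 7633 for TSA, 6801 for Sirt1 knockdown, 6486 for control A and 7406 for control B, of 14799 genes. It was 8175 and 7943 for the early 2-cell libraries. TSA thus had the most genes of the 4 late 2-cell libraries, control B came next, and Sirt1 knockdown lay between the 2 controls. The 100 most abundant genes took 15.8% of the reads on these genes in TSA and 16.1% in Sirt1 knockdown. In libraries scaled to their total, fewer transcripts of a kind and more of all others cannot be told apart.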

How the data were processed

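RNA was sequenced from pools of 3 embryos. Trim Galore, HISAT2 (build mm10) and featureCounts were run by the authors, whose processing notes also name CASAVA 1.4, and FPKM values were deposited in 9 columns, 1 per group, for 15747 complete rows on chromosomes 1 to 11. No column belongs to another series. Of 15737 genes listed once, 15360 have an exon length in GENCODE M21 (GRCm38). FPKM multiplied by that length gave whole reads for 95.2% to 97.8% of the values of a column, from which library totals and single libraries were recovered (tested on simulated data). Columns of 2 libraries are sums and were divided by 2. Columns were assigned by the study's tables. Fold changes are differences of log2(FPKM per library + 1), which understates changes of low genes, and genes are counted beyond 2-fold. With 1 library a group no count test could be fitted, so the design rests on fold changes. Read ratios carry exact (Clopper-Pearson) 95% intervals, which cover counting error only, and a 0 is taken as up to 3 reads. Members, the 27 gene lists and the comparisons were chosen with earlier results of these data known. Named genes are Sirt1, Trim21 and Duxf3, the 12 largest differences in each direction among official symbols with 20 FPKM or more, the 6 largest with 100 FPKM or more, and up to 4 genes per list; others, such as Hdac2 and the cell markers, were named after their values were seen. Alternatives were other pseudocounts, filters and scalings, single control libraries and the columns by header. CUT&Tag samples were not analysed here. Calculations used scipy 1.17.1, pandas 2.3.3 and numpy 2.4.6 under Python 3.11.15, and plots used matplotlib 3.10.9.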

Additional observations from a re-analysis of the deposited data

How the results depend on the processing

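No paired analysis was possible because the compared columns show 1 library each and carry no replicate number. The count of 5330 genes past 2-fold (3100 higher in TSA, 2230 higher in Sirt1 knockdown) fell with a pseudocount of 5 to 2671 (1552 and 1119), and with a minimum of 5 FPKM to 3368 (1924 and 1444), where 5928 genes were left. With 1 FPKM in both libraries, an alternative chosen after seeing the data, it was 2102 of 5423 (1082 and 1020). A pseudocount of 0.1, no filter, trimmed mean scaling and the requirement on counting intervals kept each count within 1.5 times. So did centring on the median, but it turned the balance, to 2538 higher in TSA and 2651 higher in Sirt1 knockdown. The yardstick of 3732 genes between the control libraries was 2163 for early 2-cell and 2409 for 4-cell FK866+NMN libraries. Leaving out 1 control library gave 67.7% to 74.1% of genes higher in TSA, and 60.1% to 62.0% of genes higher in Sirt1 knockdown, with control nearer to Sirt1 knockdown. Relative to all genes, the early 2-cell-high median of 0.47 was 0.25 with a pseudocount of 5, 0.65 with 5 FPKM and 0.31 with sets against the 4-cell control (chosen after seeing the data), and the late 2-cell-high median of -0.76 was -0.48 with a pseudocount of 5. Of 27 lists, 19 had a median below that of all genes, and all 27 kept their side with either pseudocount and 26 with 5 FPKM, where Obox turned to -1.12. The columns that the headers name TSA and Sirt1, which by the tables hold 4-cell control and 4-cell FK866, gave other results. There 2565 genes (994 and 1571) passed 2-fold, the stage medians were 0.068 and, reversed, 0.0086, and 11 lists lay below all genes, 7 of the 27 on the same side as before. Of the 20 that changed side, medians relative to all genes went to -0.26 for Usp17l and Zfp352, 0.20 for Tdpoz, -0.67 for Obox, 0.026 for class I and II deacetylases, 0.82 for sirtuins, 0.32 for NAD genes, 0.16 for cytosolic ribosomal proteins, 0.12 for ribosome biogenesis, 0.27 for translation initiation, 0.065 for cell division, -1.27 for innate immune genes and -0.50 for other cell markers. They also went from 0.24 to -1.31 for maternal genes, from 0.17 to -0.32 for genes raised by deacetylase inhibitors, and to between 0.017 and 0.47 for Pramel, acetyltransferase, proteasome, spliceosome, oxidative phosphorylation and chaperone genes. All results therefore rest on the assignment by the tables, on 1 library of 3 embryos each, and on a control that matches only 1 of the 2 treatments at most; the cause of the other shifts was not tested.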

Other observations

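Families by the start of their symbol, scanned after the values were seen and outside the lists above, gave further values. Over all genes 34.7% were higher in TSA and 25.0% higher in Sirt1 knockdown, and TSA stood alone above in 17.1% and alone below in 9.58%. Tex genes, testis-expressed by name, were higher in TSA for 7 of 10 and higher in Sirt1 knockdown for 0, with a median log2 difference of 1.84, of which 0.41 was TSA over the control mean and -1.25 Sirt1 knockdown over it. Rassf genes, Ras association domain proteins, were higher in TSA for 6 of 9 (median 1.89), and TSA stood alone above the other 3 late 2-cell libraries in 6 of them. Speer genes, a rodent germ cell family of close copies, were higher in TSA for 5 of 8, and TSA stood alone above in those 5. Of 22 olfactory receptor genes (Olfr) 11 were higher in TSA and 4 higher in Sirt1 knockdown. In the other direction, 4 of 10 Integrator complex genes (Ints) and 5 of 14 general transcription factor genes (Gtf) were higher in Sirt1 knockdown and 1 of each was higher in TSA, and TSA stood alone below in 4 of each. The shares of Gtf and Olfr genes higher in Sirt1 knockdown were not far from that of all genes. Zfp genes were even, with 55 higher in TSA and 56 higher in Sirt1 knockdown of 175.

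Some genes set the Sirt1 knockdown library apart. Cxcl13, a chemokine, had 29.2 FPKM there and 0 in TSA and both controls, and it was the only one of the 12 largest such genes with a gap of more than 8-fold. Polr2m had 42.3 FPKM in Sirt1 knockdown, 0.176 in TSA, and 3.48 and 5.55 in the controls. Zfp984 and Zfp988, neighbors by name, had 30.9 and 25.2 FPKM in Sirt1 knockdown and at most 4.54 FPKM in the other 3 libraries. Mospd3, Bckdhb and Tmem230 had 0 reads in Sirt1 knockdown, against 21.3, 18.8 and 12.9 FPKM in TSA and 10.7 FPKM or more in the controls. Both control libraries had more genes of their own in the upward direction than Sirt1 knockdown had, and control A also had more downward, so these values are within the kind of spread seen between libraries.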
